A study of Mus with 8 samples.

Results

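Genes of hepatic fat storage were followed in mouse liver RNA: 10 of the 54532 genes in the deposited table. They were chosen by name: the droplet coat genes Plin2, Plin4 and Plin5, the droplet-associated Cideb and Cidec, the lipase gene Pnpla2 and its inhibitor gene G0s2, the droplet dehydrogenase genes Hsd17b11 and Hsd17b13, and the nuclear receptor gene Pparg. Each name matched 1 protein-coding row, and all 10 members were among the 11729 genes that passed the filter on low counts. The label groups them by function, which was not measured here, so the values below are transcript levels only.

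All mice had received 2.5% dextran sulfate sodium (DSS), an orally given polysaccharide that injures the colonic epithelium, until day 6. The DSSHA group then had alcohol and a high-fat diet (libraries 35, 45, 65 and 71), and the DSS group is labelled DSS alone (libraries 15, 48, 49 and 50). The study's design text describes a purified high-fat feed as one intervention and a high-fat feed with alcohol as the other, and does not state what the mice behind the DSS libraries ate. Diet and alcohol were given together, mice without DSS were not analysed here, and genotype, strain, age and sex are not given in the labels. That each library came from its own mouse is not stated, and the p-values reflect the spread among libraries, which may be technical.

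Hepatocytes store triglyceride in lipid droplets, which form at the endoplasmic reticulum and are covered by a layer of phospholipid and proteins. Perilipins coat the surface and limit access of lipases, CIDE proteins act in droplet growth and in the loading of lipid onto lipoproteins, and adipose triglyceride lipase (encoded by Pnpla2) starts the release of fatty acids. In fatty mouse liver the receptor PPAR-gamma, otherwise an adipocyte regulator, is known to raise genes of fat storage, and PPAR-alpha raises several of the same genes in fasting.

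Libraries held 12502300 to 16967839 counts in all, and mitochondrially encoded transcripts took 30.2 to 73.0% of them in DSSHA libraries and 55.8 to 79.1% in DSS libraries. Counts of nuclear genes were less even, at 3453086 to 10947612 in DSSHA libraries and 2722757 to 6170482 in DSS libraries. Library 35 of the DSSHA group stood apart from the rest: only 784 genes had between 1 and 9 counts in it, where the rest had 4319 to 4987 such genes, and its median correlation of log2 CPM with the others was 0.784, against 0.885 to 0.924. CPM here is a count scaled to library size with TMM factors. The liver label held: all 6 hepatocyte markers passed the filter, with a summed level of 22065 to 27076 CPM in DSSHA libraries and 39304 to 61835 CPM in DSS libraries, most of it Alb. Without Alb the sum was 3679 to 7555 CPM in DSSHA libraries and 8111 to 11579 CPM in DSS libraries, still lower in every DSSHA library. Apoa1 was the largest part of that sum, with means of 4484.4 CPM in DSSHA livers and 6902.5 CPM in DSS livers. The lower sum was not shared by all markers. Mean Tat was 610 CPM in DSSHA livers and 607 CPM in DSS livers, and mean Cps1 231 and 254 CPM. Each marker other than Alb overlapped between the groups. In bulk tissue, fewer cells of a type and less RNA per cell cannot be told apart.

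None of the 10 members passed the test between the groups (edgeR quasi-likelihood test, Benjamini-Hochberg adjusted p under 0.05 over all tested genes), where 1.26% of all tested genes did. The closest were the dehydrogenase gene Hsd17b11, 2.14-fold lower in the DSSHA group (edgeR adjusted p = 0.057), G0s2 (3.47-fold lower; 0.149) and Pparg (2.66-fold higher; 0.170). In these 3 genes the 4 DSSHA libraries lay entirely on one side of the 4 DSS libraries by CPM, which held for 8.77% of all tested genes. The same 3 had an unadjusted edgeR p under 0.05, as did 11.7% of all tested genes. Once the mitochondrial share entered the model no member passed (0.469% of all genes did) and 6 had an unadjusted edgeR p under 0.05, as did 9.73% of all genes. The 6 were Hsd17b11, G0s2, Plin2, Plin5, Pparg and Cidec. In that fit the log2 fold change was -2.33 for G0s2 (edgeR adjusted p = 0.174) and 1.53 for Pparg (0.326). For Hsd17b13 and Pnpla2, which were not among the 6, it was -0.93 (0.537) and -0.64 (0.547). By other tools the number of members past the threshold was 2 with DESeq2 (2.96% of the genes to which it gave an adjusted p), 0 with limma-voom (1.03%), 1 with limma-voom and sample weights (5.81%), 1 with limma on log2(FPKM + 1) (1.56%) and 0 with limma on log2(FPKM + 0.1) (1.30%). Of the 10 fold changes 9 were below 0, with a median log2 fold change of -0.52, against -0.01 over all tested genes. The values of Plin2 and Cidec turned above 0 without DSS library 15.

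**Figure D1:**
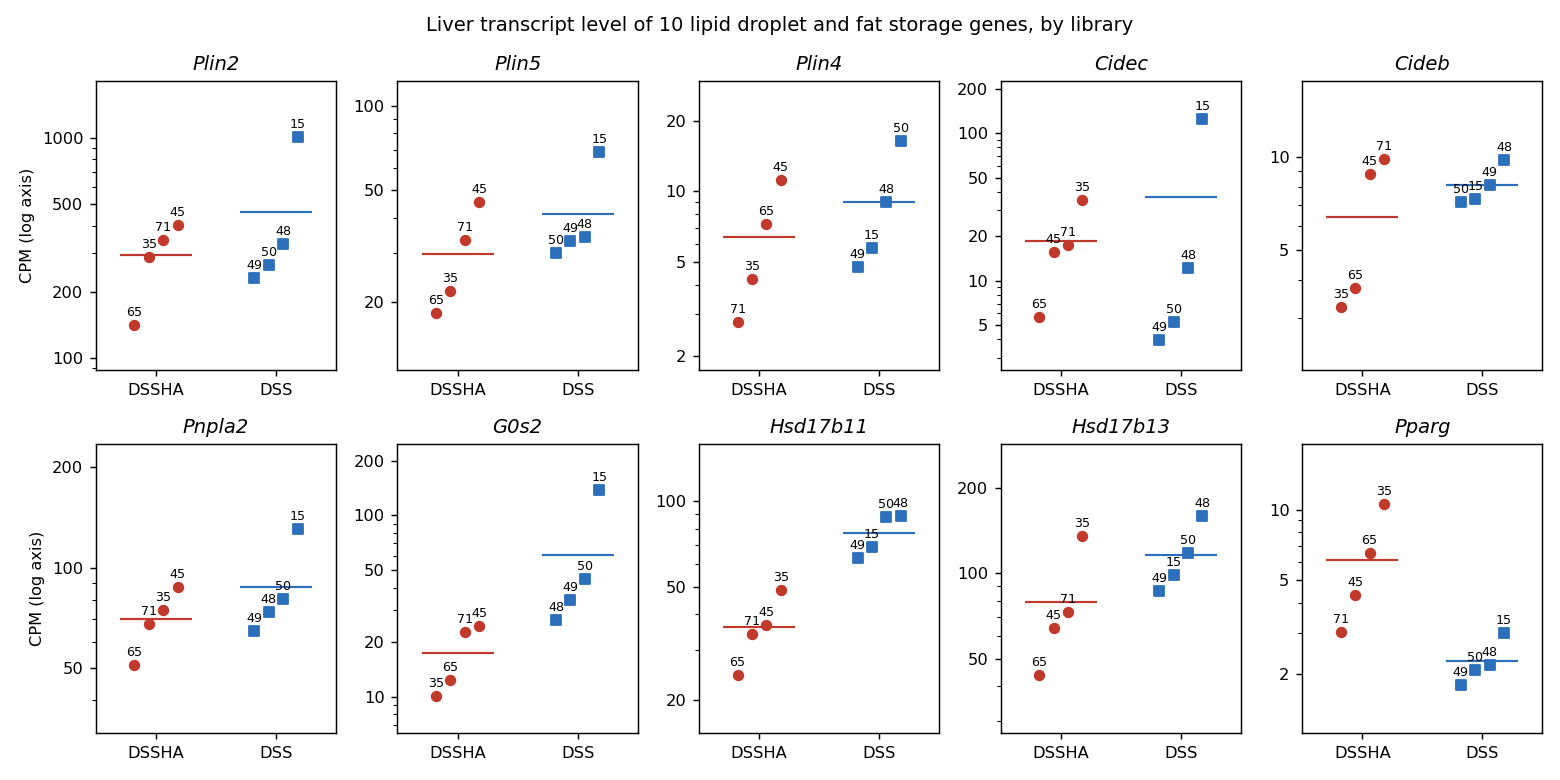
Transcript level of each member (CPM, log axis) in the 4 DSSHA libraries (red circles) and the 4 DSS libraries (blue squares), with library numbers beside the points, libraries sorted by level within a group and the group mean as a line. The groups are apart for Hsd17b11, G0s2 and Pparg and overlap for the other 7 members, and DSS library 15 lies far above the other libraries for Plin2, Cidec and G0s2.

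Plin2 encodes the main perilipin of hepatocyte droplets and lies on chromosome 4 (86648386 to 86670060, minus strand, GRCm38, as are all positions here). It was the most abundant member per gene length, with a mean of 82.0 ± 31.2 FPKM in DSSHA livers and 128.7 ± 105.0 FPKM in DSS livers (SD, n = 4 each). In DSSHA libraries 35, 45, 65 and 71 it had 289, 404, 141 and 346 CPM, and in DSS libraries 15, 48, 49 and 50 it had 1011, 331, 232 and 264 CPM. The groups overlapped, and DSS library 15 stood far above every other library. DSSHA over DSS, this was a log2 fold change of -0.64 ± 0.48 (SE; 95% interval -1.70 to 0.42; edgeR adjusted p = 0.692), and it was 0.09 without DSS library 15, so the direction of this difference rested on that library. The 3 lowest Plin2 values came from libraries 65, 49 and 50, the 3 with the highest mitochondrial shares (73.0, 69.9 and 79.1%). Adding that share to the model, the log2 fold change was -1.45 (edgeR adjusted p = 0.251). The part of the mitochondrial share in these values was not tested.

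Plin5, whose protein places droplets beside mitochondria in tissues that burn fat, is on chromosome 17 (56111601 to 56117596, minus strand). Its levels were 21.9, 45.6, 18.2 and 33.3 CPM in DSSHA libraries 35, 45, 65 and 71, and 68.3, 34.1, 33.0 and 29.9 CPM in DSS libraries 15, 48, 49 and 50. The groups overlapped and library 15 was again the highest. Between the groups the log2 fold change was -0.47 ± 0.35 (SE; interval -1.24 to 0.29; edgeR adjusted p = 0.679), or -0.12 without DSS library 15 and -0.76 without DSSHA library 45, and -1.05 with the mitochondrial share in the model (edgeR adjusted p = 0.313). Plin4, a perilipin best known from adipocytes and muscle, lies 1797 bases from Plin5 (56100591 to 56109803, minus strand) and was scarce, with 40 to 273 counts per library. It had 4.25, 11.2, 7.29 and 2.78 CPM in the DSSHA libraries and 5.74, 9.05, 4.79 and 16.4 CPM in the DSS libraries, in the same library order. The pattern was not that of Plin2 or Plin5: library 50 was the highest and library 15 was in the middle. Its log2 fold change was -0.48 ± 0.49 (SE; interval -1.55 to 0.58; edgeR adjusted p = 0.779), ranging from -0.93 without DSSHA library 45 to -0.05 without DSS library 50, and it was -0.08 with the mitochondrial share in the model (0.989).

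Set against the whole perilipin family by FPKM, which is per gene length, Plin2 made up 74.5 to 82.8% of the summed perilipin level in DSSHA libraries and 76.5 to 88.1% in DSS libraries. Plin5 made up 10.5 to 16.2% in DSSHA libraries and 10.02 to 18.3% in DSS libraries. The shares of both genes overlapped between the groups. Plin3 made up 4.09 to 6.89% in DSSHA libraries and 1.57 to 4.18% in DSS libraries, an overlap through DSSHA library 45 and DSS library 49. The summed perilipin level was 53.4 to 141.8 FPKM in DSSHA libraries and 84.2 to 323.8 FPKM in DSS libraries, and without library 15 the highest DSS sum was 112.4. Plin1, the adipocyte perilipin, had 2 counts in all 8 libraries together.

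Cidec, also called Fsp27, promotes the fusion and growth of droplets and lies on chromosome 6 (113424634 to 113435760, minus strand). It varied more than any other member. In DSSHA libraries 35, 45, 65 and 71 it had 35.2, 15.6, 5.63 and 17.3 CPM, and in DSS libraries 15, 48, 49 and 50 it had 125.3, 12.3, 3.95 and 5.21 CPM. The DSS values span 31.7-fold and the DSSHA values 6.25-fold. The groups overlapped, with library 15 far above every other value. Its biological coefficient of variation, the spread between libraries of a group estimated by edgeR, was 0.881, above that of 96.3% of tested genes. The log2 fold change was -0.998 ± 0.952 (SE; interval -3.09 to 1.09; edgeR adjusted p = 0.765), 1.34 without DSS library 15 (0.421) and -2.12 with the mitochondrial share in the model (0.511). The sign also turned under limma-voom (0.0034), limma-voom with sample weights (0.31) and limma on log2(FPKM + 1) (0.078).

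Cideb acts in the lipidation of very low density lipoprotein and lies on chromosome 14 (55754050 to 55758458, minus strand). Its levels were 3.25, 8.81, 3.76 and 9.84 CPM in DSSHA libraries 35, 45, 65 and 71, and 7.30, 9.82, 8.15 and 7.15 CPM in DSS libraries 15, 48, 49 and 50. DSSHA libraries 35 and 65 lay below every DSS library, and 45 and 71 lay within or above the DSS range. Its log2 fold change was -0.33 ± 0.37 (SE; interval -1.15 to 0.49; edgeR adjusted p = 0.811), ranging over single libraries left out from -0.61 without DSSHA library 71 to -0.10 without DSSHA library 35, and it was -0.93 with the mitochondrial share in the model (0.547). Cideb shares 1451 bases with Nop9 on the other strand, and the strand setting of the counting is not stated in the sources read. Reads from exons that both genes may have there could have been counted for either. Per gene length Cidec was 54.6 to 89.7% of the summed CIDE level in DSSHA libraries and 28.01 to 93.2% in DSS libraries. Cidec exceeded Cideb by FPKM in all 4 DSSHA libraries and also in DSS library 15, at 66.9 against 4.86 FPKM. In DSS libraries 49 and 50 Cideb was the higher of the pair, and in library 48 Cidec had 6.48 and Cideb 6.47 FPKM.

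G0s2 encodes a small protein that binds and inhibits adipose triglyceride lipase, and lies on chromosome 1 (193272161 to 193273217, minus strand). It had 10.1, 24.5, 12.4 and 22.9 CPM in DSSHA libraries 35, 45, 65 and 71, and 137.8, 26.5, 34.0 and 44.7 CPM in DSS libraries 15, 48, 49 and 50. Every DSSHA library was below every DSS library, by a narrow gap between libraries 45 and 48. The group means were 17.5 ± 7.27 CPM in DSSHA livers and 60.8 ± 51.9 CPM in DSS livers (SD, n = 4 each), or 35.1 CPM in DSS livers without library 15. The log2 fold change was -1.795 ± 0.512 (SE; interval -2.92 to -0.67; edgeR adjusted p = 0.149), and -1.001 without DSS library 15 (0.271). G0s2 passed the threshold with DESeq2 (adjusted p = 0.011), which gave the same value as the authors' deposited table. DESeq2 was the only 1 of 21 alternatives in which it passed. Adjusted p was 0.232 with limma-voom and 0.455 with edgeR without a filter on low counts. With limma-voom and sample weights the log2 fold change was -0.87 (adjusted p = 0.264).

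G0s2 lies wholly inside the span of Lamb3, a laminin subunit gene on the opposite strand (193207699 to 193343878). Lamb3 had 2.52, 4.12, 1.99 and 4.17 CPM in DSSHA libraries 35, 45, 65 and 71, and 24.1, 7.36, 3.71 and 4.92 CPM in DSS libraries 15, 48, 49 and 50. Among 11729 tested genes Lamb3 was the one whose library pattern lay closest to that of G0s2, at a root mean square difference of 0.45 in centred log2 CPM over 8 libraries, where G0s2 itself varied by 1.08 around its mean. Library 15 was the highest for both genes. The strand setting is not known and the table gives gene spans, not exons, so whether any reads were counted for the wrong gene of this pair was not tested.

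Pnpla2, the lipase gene (chromosome 7, 141455198 to 141460743, plus strand), was among the steadiest members. It had 74.6, 87.2, 51.0 and 67.6 CPM in DSSHA libraries 35, 45, 65 and 71, and 130.9, 73.4, 64.5 and 80.3 CPM in DSS libraries 15, 48, 49 and 50. The groups overlapped, and its biological coefficient of variation of 0.293 was above that of only 23.9% of tested genes. For Pnpla2 the log2 fold change was -0.32 ± 0.27 (SE; interval -0.90 to 0.27; edgeR adjusted p = 0.731), or -0.06 without DSS library 15. Since a ratio within a library cancels library scaling apart from the prior count, inhibitor was also set against lipase. G0s2 over Pnpla2 was 0.137, 0.282, 0.244 and 0.339 in DSSHA libraries 35, 45, 65 and 71, and 1.05, 0.363, 0.529 and 0.557 in DSS libraries 15, 48, 49 and 50, as ratios of CPM with a prior count of 2. The DSSHA ratios were all below the DSS ratios, again by a narrow gap, here between libraries 71 and 48. The mean log2 ratio was -2.07 ± 0.56 in DSSHA livers and -0.79 ± 0.64 in DSS livers (SD, n = 4 each), given as a description with no test. Of the 4 ratios compared, Cidec over Cideb, Plin2 over Plin5 and Hsd17b13 over Hsd17b11 overlapped between the groups.

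**Figure D2:**
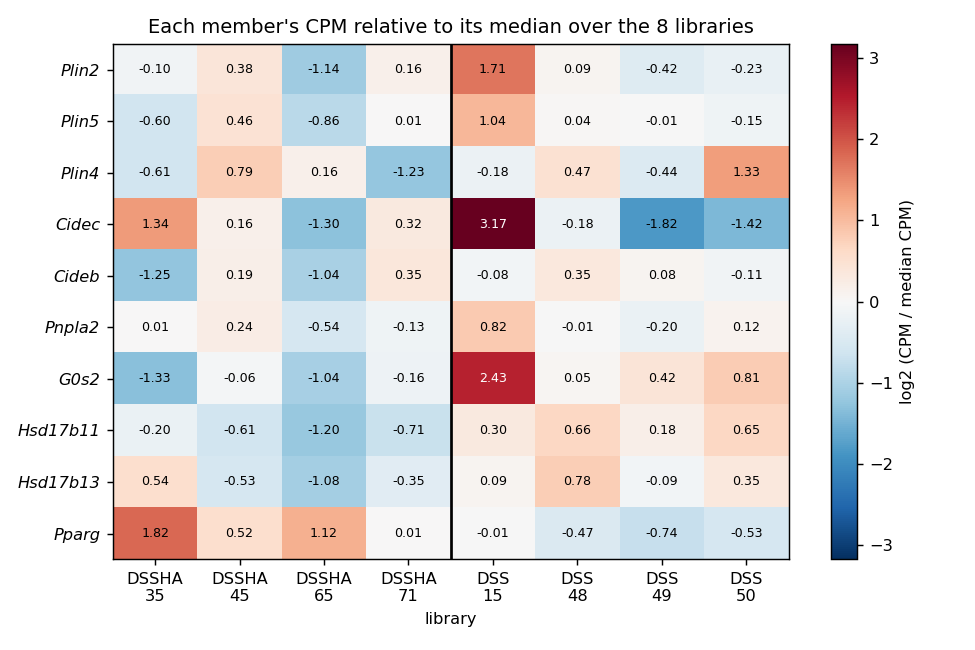
Log2 of each member's CPM over its own median across the 8 libraries, with DSSHA libraries on the left and DSS libraries on the right of the black line (red above the median, blue below). Library 15 is at 1.71 for Plin2, 3.17 for Cidec and 2.43 for G0s2, and library 65 is below the median for 8 of the 10 members.

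Hsd17b11 and Hsd17b13 encode related short-chain dehydrogenases that sit on the droplet surface, Hsd17b13 mostly in liver. They are neighbours on the minus strand of chromosome 5, at 103989762 to 104021919 and 103955440 to 103977410, with 12351 bases between them. Hsd17b11 had 48.6, 36.6, 24.4 and 34.2 CPM in DSSHA libraries 35, 45, 65 and 71, and 68.9, 88.6, 63.3 and 87.9 CPM in DSS libraries 15, 48, 49 and 50. Every DSSHA library was below every DSS library, and library 15 was not high for this gene. The means were 36.0 ± 9.96 CPM in DSSHA livers and 77.2 ± 13.0 CPM in DSS livers (SD, n = 4 each). This gave a log2 fold change of -1.10 ± 0.24 (SE; interval -1.63 to -0.57; edgeR adjusted p = 0.057). Hsd17b11 had the lowest biological coefficient of variation of the members, 0.271.

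The Hsd17b11 estimate moved little between settings, from -1.33 to -0.96, and the call was close to the threshold. It passed without DSSHA library 35 (edgeR adjusted p = 0.0062, where 2.55% of all genes passed), with DESeq2 (0.0039), with limma-voom and sample weights (0.0030), without a filter on low counts (0.025, where 1.2% of all genes passed) and with limma on log2(FPKM + 1) (0.047). It did not pass when any of the other 7 libraries was left out (edgeR adjusted p 0.075 to 0.220) or once the mitochondrial share entered the model (0.150). The authors' deposited table lists it at an adjusted p of 0.0039, among 431 genes under 0.05 (2.09% of those with a p-value).

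Hsd17b13 had 135.0, 64.2, 43.7 and 72.8 CPM in DSSHA libraries 35, 45, 65 and 71, and 98.5, 159.4, 87.0 and 117.8 CPM in DSS libraries 15, 48, 49 and 50. DSSHA libraries 45, 65 and 71 lay below every DSS library, and library 35 was the second highest of all 8. The log2 fold change was -0.55 ± 0.34 (SE; interval -1.29 to 0.19; edgeR adjusted p = 0.603), and -0.94 without DSSHA library 35 (0.076). Hsd17b13 over Hsd17b11, as a ratio of CPM with a prior count of 2, was 2.77, 1.75, 1.79 and 2.13 in DSSHA libraries 35, 45, 65 and 71, and 1.43, 1.799, 1.37 and 1.34 in DSS libraries 15, 48, 49 and 50. These ratios overlapped through DSS library 48.

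Pparg (chromosome 6, 115360951 to 115490399, plus strand) was the one member with a higher mean in the DSSHA group. It was the scarcest member by counts, at 14 to 189 per library. It had 10.6, 4.32, 6.52 and 3.02 CPM in DSSHA libraries 35, 45, 65 and 71, and 2.99, 2.17, 1.797 and 2.09 CPM in DSS libraries 15, 48, 49 and 50. The groups did not overlap by CPM, but DSSHA library 71 and DSS library 15 lay almost together, and library 35, the one that stood apart as a whole, was the highest. By FPKM the groups overlapped, with 0.993 in DSSHA library 71 and 1.004 in DSS library 15. The means were 6.11 ± 3.31 CPM in DSSHA livers and 2.26 ± 0.51 CPM in DSS livers (SD, n = 4 each). For Pparg the log2 fold change was 1.41 ± 0.43 (SE; interval 0.48 to 2.35; edgeR adjusted p = 0.170), or 0.99 without DSSHA library 35 (0.229) and 0.73 on the log2(FPKM + 1) scale. Adjusted p was 0.084 with DESeq2 and lay between 0.104 and 0.438 in the edgeR fits with single libraries left out.

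Other cells that express Pparg were checked by marker lists, by the test that 1.26% of all tested genes passed. Of 7 adipocyte markers, Adipoq and Lep had no count in any library, Plin1 had 2 and Retn 4 counts in all, and Cfd had 17. Fabp4 and Car3, which is also a liver gene, were abundant enough to test. Car3 fell (log2 fold change -4.43, edgeR adjusted p = 0.0066), a call lost without DSSHA library 35 (0.054), without a filter on low counts (0.085) and with the mitochondrial share in the model (0.062), and Fabp4 had 16.0 CPM in DSSHA livers and 13.6 CPM in DSS livers (edgeR adjusted p = 0.818). The summed level of this list was 17.98 to 54.0 CPM in DSSHA libraries and 193 to 579 CPM in DSS libraries, and without Car3 it was 11.5 to 19.8 CPM in DSSHA libraries and 10.1 to 21.0 CPM in DSS libraries. Kupffer cell and macrophage markers summed to 211 to 473 CPM in DSSHA libraries and 118 to 169 CPM in DSS libraries, and without Marco to 69.7 to 237 CPM in DSSHA libraries and 112 to 159 CPM in DSS libraries. Of the 6 tested genes of that list 1 rose, the scavenger receptor gene Marco (log2 fold change 4.13, edgeR adjusted p = 0.0089), a call lost without DSS library 48, DSS library 49 or DSSHA library 35 (up to 0.061), without a filter on low counts (0.104) and with the mitochondrial share in the model (0.087), and it stood at 3.05 on the log2 scale without DSSHA library 71. The part of macrophages in the Pparg values was not tested. Stellate cells also hold droplets, and their 6 markers summed to 28.2 to 65.2 CPM in DSSHA libraries and 31.5 to 83.6 CPM in DSS libraries, with none past the test. Neutrophil markers summed to 26.9 to 56.2 CPM in DSSHA libraries and 2.64 to 11.3 CPM in DSS libraries, and Mpo and Ly6g were too scarce to test. The other 3 of 5, Retnlg, S100a8 and S100a9, rose (log2 fold changes 4.25, 2.88 and 2.56), with calls lost for S100a8 without DSS library 48, 49 or 50 or DSSHA library 45 or 65 (edgeR adjusted p up to 0.107) and for S100a9 without DSS library 48, 49 or 50 (up to 0.070). Retnlg had only 9 counts in the DSS libraries together, which limits the precision of its fold change. With the mitochondrial share in the model S100a8 and S100a9 lost their calls (edgeR adjusted p = 0.091 and 0.052), and with limma-voom Retnlg and S100a8 did (adjusted p = 0.335 and 0.051).

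**Figure D3:**
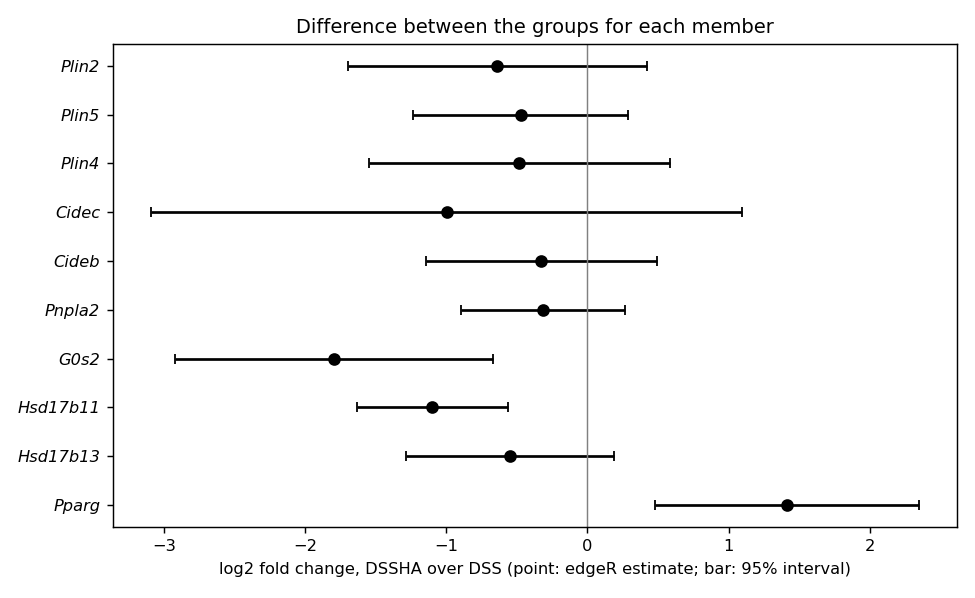
Log2 fold change of each member, DSSHA over DSS, from edgeR, with its 95% interval. The intervals of Hsd17b11, G0s2 and Pparg lie to one side of 0, before adjustment for the number of genes tested, and that of Cidec is the widest, from -3.09 to 1.09.

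Of the remaining genes of the pathway, few passed the test, which 1.26% of all tested genes did. Among 12 tested genes of the droplet coat and of droplet formation, of 14 listed, none passed (median log2 fold change -0.12). The 2 with the smallest p were Fitm2, needed for droplet budding, at 10.4 CPM in DSSHA livers and 20.7 CPM in DSS livers (edgeR adjusted p = 0.215), and the perilipin gene Plin3, at 22.2 CPM in DSSHA livers and 13.7 CPM in DSS livers (0.358). Of 8 tested lipolysis genes, of 9 listed, 1 fell and none rose (median -0.73): Ces3a, a carboxylesterase of the hepatocyte endoplasmic reticulum, at -2.38 ± 0.36 on the log2 scale (SE; edgeR adjusted p = 0.0085), a call lost once the mitochondrial share entered the model (0.061). Ces genes are close relatives and the counting could have split their reads. None of 11 tested genes of triglyceride synthesis, of 13 listed, passed (median -0.37). Gpat4 and Gpam, acyltransferases of the first step, had the smallest p, with log2 fold changes of -1.36 and -1.06 (edgeR adjusted p = 0.107 and 0.133).

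Of 11 genes that PPAR-gamma raises in fatty mouse liver, 5 were abundant enough to test and none passed (median log2 fold change -0.04). Cd36, a fatty acid uptake receptor, had 40.8, 24.2, 17.2 and 10.2 CPM in DSSHA libraries 35, 45, 65 and 71, and 5.05, 11.6, 18.7 and 16.1 CPM in DSS libraries 15, 48, 49 and 50 (edgeR adjusted p = 0.522). Like Pparg it was highest in library 35, but its groups overlapped. The smallest p values were those of Acot1, an acyl-CoA thioesterase gene, and Fabp1, the liver fatty acid binding protein gene, with log2 fold changes of -2.77 and -1.14 (edgeR adjusted p = 0.087 and 0.234). Acot1 and Fabp1 are also in the list of PPAR-alpha targets below, so the lists are not separate. No member was put in either list. Mogat1 had 50 counts in the DSSHA libraries and 12 in the DSS libraries, too few to test. Of 12 PPAR-alpha targets, all tested, 3 fell and none rose (median -1.14): Angptl4 (log2 fold change -1.13, edgeR adjusted p = 0.027), Cyp4a10 (-1.79, 0.031) and Cyp4a14 (-1.87, 0.047). Among all tested genes 1.26% passed. The Angptl4 call was lost without DSS library 48, 49 or 50 or DSSHA library 65 or 71 (edgeR adjusted p up to 0.128), and likewise once the mitochondrial share entered the model (0.158). The Cyp4a10 and Cyp4a14 calls were both lost without any of the 4 DSS libraries or DSSHA library 45 or 65 (up to 0.120 for Cyp4a10 and 0.167 for Cyp4a14). Cyp4a10 also lost its call with the mitochondrial share in the model (0.184), and Cyp4a14 with a non-robust fit (0.051) and with limma on log2(FPKM + 0.1) (0.054). None of the 6 hepatocyte markers passed. Alb had no overlap between the groups and a log2 difference of -1.20 (adjusted p = 0.115 by edgeR), and the other 5 overlapped, from -0.93 for Ttr to 0.0070 for Tat.

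Single libraries set much of the picture. DSS library 15 was the highest of 8 for 5 members (Plin2, Plin5, Cidec, G0s2 and Pnpla2) and DSSHA library 65 the lowest for 5 (Plin2, Plin5, Pnpla2, Hsd17b11 and Hsd17b13). Library 35, with its short list of low counts, was highest for Pparg and lowest for Cideb and G0s2, and no member had fewer than 58 counts in it. By likeness of pattern, the genes nearest to Plin2 were Plscr1, Plin5 and Pop7, at root mean square differences of 0.23, 0.34 and 0.35 in centred log2 CPM over 8 libraries, where Plin2 varied by 0.76 around its mean. Those nearest to Cidec were Golt1a, Cgref1 and Gm48199 (0.74, 0.82 and 0.83, against a spread of 1.53), after Lamb3 those nearest to G0s2 were Lad1 and Pdp2 (0.53 and 0.54), and those nearest to Pparg were Hacd4, Gskip and Ank2 (0.17, 0.25 and 0.29, against 0.80).

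**Figure D4:**
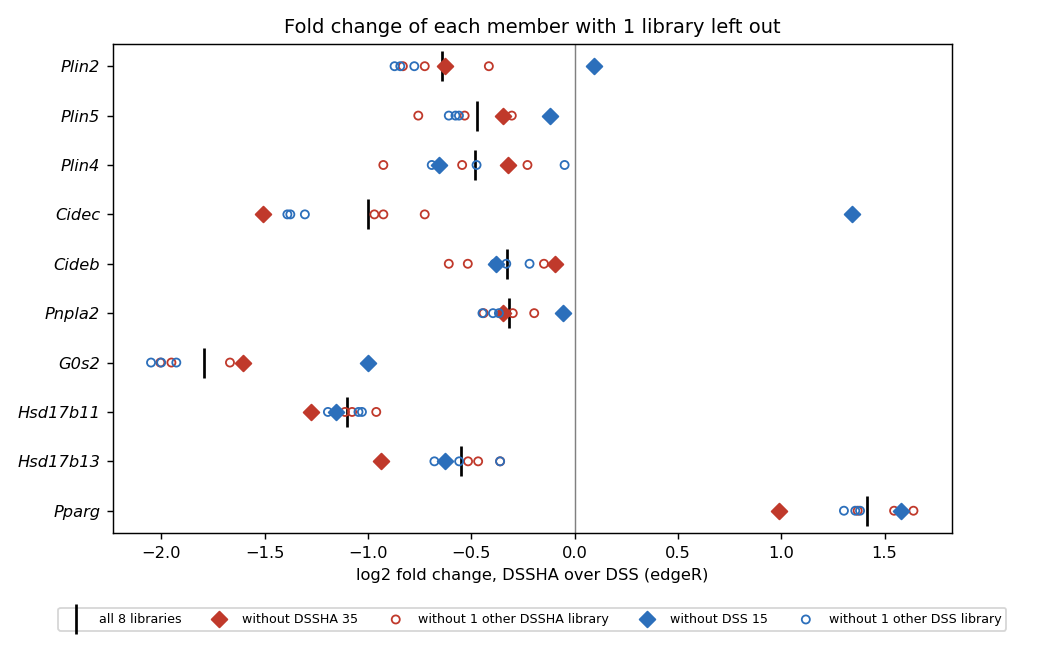
Log2 fold change of each member, DSSHA over DSS (edgeR), with all 8 libraries (black tick) and with 1 library left out (red for a DSSHA library, blue for a DSS library; filled diamonds for libraries 35 and 15). Without DSS library 15 Plin2 moves to 0.09 and Cidec to 1.34, while Hsd17b11 stays between -1.28 and -0.96.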

How the data were processed

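Liver mRNA libraries were grouped by their titles and treatment labels. The authors' deposited table gives a raw count and an FPKM per gene and library, with the builds GRCm38 and mm10 per the submitters' processing notes. The aligner and the counter are not named, and the use of strand in counting is not stated, in the sources read. The deposited FPKM equals the count over gene length and 1 size per library. The authors' deposited group means of normalized signal were not used. The authors' deposited log2 fold change is the DSSHA group over the DSS group, and the authors' deposited p-value and adjusted p come from their own comparison, with no tool named in the labels. Running DESeq2 again matched the members' adjusted p to 3 digits. No sequence is shown.

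Counts were filtered with filterByExpr (minimum 10), scaled with TMM and fitted over the whole table with edgeR 4.0.16 (robust quasi-likelihood F test, R 4.3.3), adjusted p under 0.05 (Benjamini-Hochberg). SE is the log2 fold change over the square root of F, and intervals are 95%. Log2 CPM used a prior count of 2. Limma 3.58.1 and DESeq2 1.42.0 were alternatives. The code was tested on simulated data. The fit estimated the spread between libraries of a group as well as counting error.

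Members, lists and alternatives were chosen with earlier results of these data known. All 10 members were named; of the fixed lists, genes past the test or the 2 with the smallest p, and markers of other cells. For 4 members the 3 genes nearest in pattern were named. Mogat1 and Cd36, Lamb3, Nop9 and Plin1 are named outside this rule, after their values were seen.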

Additional observations from a re-analysis of the deposited data

Results flagged for a closer look

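In the DSS group, 4 members had one library far from the other 3, by the gap to its nearest neighbour over the group's whole range (Dixon's limit for 4 values). All 4 were library 15: Plin2 at 1011 CPM (gap 0.873 of the range), Plin5 at 68.3 CPM (0.892), Cidec at 125.3 CPM (0.931) and G0s2 at 137.8 CPM (0.837). In all 20 sets of 4 values were examined, 10 members in each of 2 groups. Chance flags about 1 in 20 where values are normally distributed, which was not tested for CPM. The gaps were taken on CPM and not on log2 CPM, so the chance rate for these sets is not known. The 4 flagged values come from the same library and are not independent of each other. No DSSHA library met the limit for any member.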

How the results depend on the processing

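No paired analysis was possible because the groups share no replicate number. Of 210 recomputed member values over 21 alternatives, 194 kept their direction and side of the threshold, 7 passed it and 9 turned sign. With single libraries left out Plin2 ran from -0.87 to 0.094 and Cidec from -1.51 to 1.34. The turned values were, for Cidec, 0.0034 (limma-voom), 0.31 (limma-voom with sample weights), 0.078 and 0.17 (log2 of FPKM + 1 and + 0.1), 1.34 without DSS library 15 and 0.83 without DSS library 15 and DSSHA library 35 together, for Plin2 0.094 and 0.11 in these last 2 fits, and for Plin5 0.0101 in the last. That joint omission was chosen after seeing the data. Members past the threshold numbered 0, but 2 with DESeq2, 1 each with no filter, weighted limma-voom, log2(FPKM + 1), the joint omission and a threshold of 0.1, and 0 to 1 with single libraries left out. All genes past it numbered 148, but 249 with no filter, 55 with the mitochondrial share as covariate, 682 with weighted limma-voom, 431 with DESeq2, 473 in the joint omission, 266 and 61 at thresholds of 0.1 and 0.01, and 58 to 308 with single libraries left out (58 without DSS 48, 74 without DSS 49, 77 without DSS 50, 83 without DSSHA 45, 308 without DSSHA 35). The cause was not tested. Pparg had 14 counts in DSS library 50, which limits the precision of its value there.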
